A study of Rattus norvegicus with 12 samples.

Results

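The SLC39 family, also named ZIP, is a family of membrane transporters that move zinc into the cytoplasm, from outside the cell or from organelles. Its members were taken by gene symbol from a fixed list of 10, Slc39a1, Slc39a2, Slc39a3, Slc39a6, Slc39a7, Slc39a9, Slc39a10, Slc39a11, Slc39a13 and Slc39a14. All 10 were found among the 18483 genes of the table and all 10 passed the filter on low counts that left 13967 genes for testing. RNA was sequenced from neonatal rat ventricular myocytes (NRVMs), primary heart muscle cells of newborn Sprague-Dawley rats purified on Percoll and kept in medium with insulin, transferrin and selenium. The cells were transfected with a control siRNA (siNeg) or with one directed at Slc39a2 (siSlc39a2), of which a single sequence was used. From 12 h later they were left untreated or given phenylephrine (PE), an α1-adrenergic agonist that makes these cells grow, for 36 h according to the labels, while the culture methods of the study state a longer exposure. This gave 4 groups, siNeg and siSlc39a2 without PE and siNeg PE and siSlc39a2 PE with it, of 3 biological replicates each. No untransfected cells are among the samples, so every group carries a transfection.

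Zinc in the cytoplasm is kept low by the balance of SLC39 proteins, which bring it in, SLC30 (ZnT) proteins, which move it out or into vesicles, and metallothioneins, which bind it. The SLC39 proteins fall into subfamilies by sequence. Slc39a1, Slc39a2 and Slc39a3 form the ZIP II group of importers at the cell surface. Slc39a6, Slc39a7, Slc39a10, Slc39a13 and Slc39a14 belong to the LIV-1 group, in which Slc39a7 lets zinc out of the endoplasmic reticulum, Slc39a13 works in the Golgi and vesicles, and Slc39a14 also carries iron and manganese. Slc39a9 is the ZIP I member, known from the Golgi apparatus, and Slc39a11 is the GufA member. The metal-responsive factor Mtf1 senses zinc and binds metal response elements (MREs) in promoters.

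A sample held from 24065539 to 28603854 expected counts in total. The smallest number taken as detected, 3 counts, was worth from 0.102 to 0.118 CPM (counts scaled to the normalized library size). The 10 cardiomyocyte markers were all measured, with a summed level between 23472 and 34121 FPKM (fragments scaled to transcript length and library size) per sample. These sums were 23983 to 26433 FPKM in siNeg and 23472 to 23945 in siSlc39a2. With PE they were higher, at 28160 to 30274 and 31733 to 34121. Fibroblast markers summed to 2525 to 3441 FPKM in siNeg and 1117 to 1222 in siSlc39a2, and with PE to 1813 to 2366 and 744 to 1044. Macrophage markers summed to 67.1 to 96.7 FPKM in siNeg and to at most 48.4 in every other group, and endothelial markers to at most 4.75 FPKM in any sample, with Cldn5 at 0 in 7 samples and Emcn at 0 in 5. Smooth muscle and pericyte markers summed to 1601 to 1697 FPKM in siNeg and 706 to 718 in siSlc39a2, and with PE to 977 to 1284 and 1041 to 1143. The part of these marker differences in the changes of the members was not tested, and in RNA from whole cultures fewer cells of a type and less RNA per cell cannot be told apart.

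Promoter sequences of the rat genome build GRCr8 from RefSeq, each of 300 bases from 250 before to 50 after the transcript start, were held for 9 of the 10 members, the exception being Slc39a14. They are given for the ZIP II members and for Slc39a9 and Slc39a10. Slc39a2 was the gene lowered, and Slc39a1 and Slc39a3 were its nearest relatives and were called lower with the knockdown. The call of Slc39a3 without PE was at the edge of the threshold. Slc39a9 and Slc39a10 showed the largest rises with knockdown and with PE apart from Slc39a2. Capitals mark matches to the MRE core, searched as TGCACNC and TGCGCNC on both strands, and matches of the 2 patterns can overlap each other.
Slc39a2 (GRCr8 chr15:27063987-27064286, + strand): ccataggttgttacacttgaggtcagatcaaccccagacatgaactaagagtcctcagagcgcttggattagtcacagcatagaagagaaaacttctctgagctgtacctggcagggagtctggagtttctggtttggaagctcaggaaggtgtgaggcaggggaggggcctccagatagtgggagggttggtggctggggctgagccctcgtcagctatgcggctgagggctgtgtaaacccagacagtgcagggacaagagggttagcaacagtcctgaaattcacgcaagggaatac
Slc39a1 (GRCr8 chr2:178000869-178001168, + strand): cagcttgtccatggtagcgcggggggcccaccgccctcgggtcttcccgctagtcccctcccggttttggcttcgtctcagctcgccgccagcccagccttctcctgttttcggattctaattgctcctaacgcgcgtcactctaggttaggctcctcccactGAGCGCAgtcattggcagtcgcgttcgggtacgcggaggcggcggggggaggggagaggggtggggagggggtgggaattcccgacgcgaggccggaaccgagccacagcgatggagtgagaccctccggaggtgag
Slc39a3 (GRCr8 chr7:9327291-9327590, + strand): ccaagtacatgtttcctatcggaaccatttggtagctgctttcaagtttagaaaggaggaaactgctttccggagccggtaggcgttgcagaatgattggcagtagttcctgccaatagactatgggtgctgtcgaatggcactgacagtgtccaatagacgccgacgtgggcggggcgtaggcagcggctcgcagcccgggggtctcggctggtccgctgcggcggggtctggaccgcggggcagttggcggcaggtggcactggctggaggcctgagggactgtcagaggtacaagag
Slc39a9 (GRCr8 chr6:106022608-106022907, + strand): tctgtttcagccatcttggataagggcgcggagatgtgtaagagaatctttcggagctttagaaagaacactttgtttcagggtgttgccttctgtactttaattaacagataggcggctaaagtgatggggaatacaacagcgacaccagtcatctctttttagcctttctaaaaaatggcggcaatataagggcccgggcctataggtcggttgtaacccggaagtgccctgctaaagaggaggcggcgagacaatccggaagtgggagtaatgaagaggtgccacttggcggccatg
Slc39a10 (GRCr8 chr9:62405183-62405482, + strand): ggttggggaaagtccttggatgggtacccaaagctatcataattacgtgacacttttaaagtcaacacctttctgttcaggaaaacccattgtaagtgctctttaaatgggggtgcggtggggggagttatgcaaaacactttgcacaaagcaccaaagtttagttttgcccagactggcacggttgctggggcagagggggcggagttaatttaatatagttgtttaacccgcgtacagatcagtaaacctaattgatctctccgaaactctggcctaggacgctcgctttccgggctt
An MRE core was found in promoters of 4 of the 9 members (those of Slc39a1, Slc39a7, Slc39a11 and Slc39a13). Members were counted by gene, and Slc39a7 had overlapping windows. Counted by window, 24.2% of all 33469 promoters of this length held a match. Of the 5 windows shown, that of Slc39a1 alone held an MRE core. The site for STAT factors (TTCNNNGAA) and the AP-1 site (TGANTCA) were searched on both strands. Neither was found in a window of the 9 members, where 8.87% and 7.33% of all promoters held them. A match is only a run of letters in this window, and these were not the genome build or annotation of the counts.

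Levels of different members were compared per length, in FPKM. In siNeg cells Slc39a1 had the highest level, at 163 ± 10.1 FPKM (SD, n = 3), and Slc39a7 followed with 72.5 ± 0.816. Slc39a14 had 35.1 ± 1.52 FPKM and Slc39a13 had 32.5 ± 1.24, and their samples did not overlap. Below them lay Slc39a6 at 9.71 ± 0.990 FPKM, Slc39a9 at 9.20 ± 1.18, Slc39a3 at 7.92 ± 0.251 and Slc39a11 at 7.38 ± 0.335. The range of each of these 4 overlapped with that of its neighbour, although within a sample Slc39a6 was the highest of the 4 in all 3. The order among Slc39a9, Slc39a3 and Slc39a11 varied between samples. Slc39a10, with 3.97 ± 0.697 FPKM, and Slc39a2, with 1.62 ± 0.214, came last. The importer targeted by the siRNA was thus the member with the lowest level of the 10, in siNeg and in each other group, and in each single sample. With PE, Slc39a2 reached 4.73 ± 1.69 FPKM, and its range then overlapped that of Slc39a10 at 7.10 ± 1.39.

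**Figure D1:**
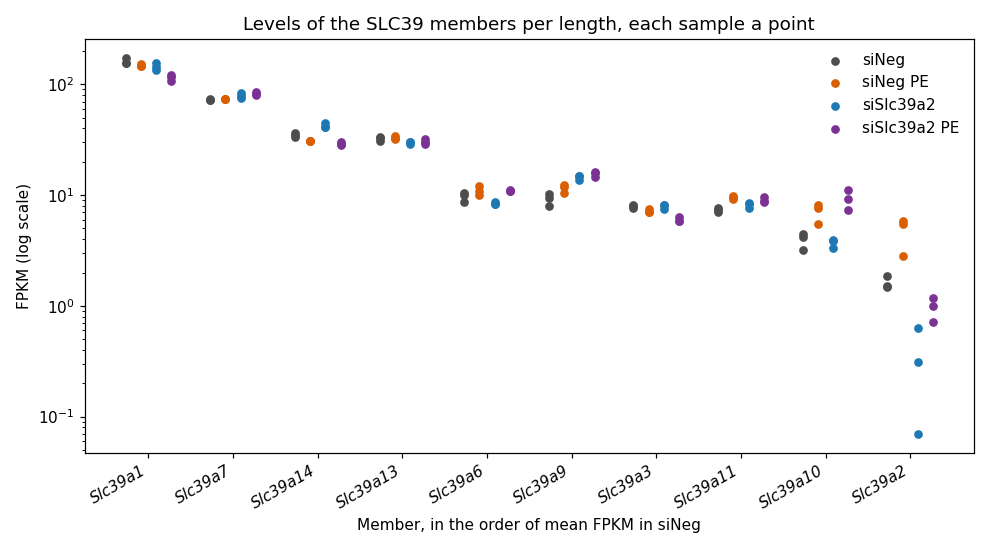
FPKM of each member (log scale) in every sample, with the members ordered by their mean in siNeg and the 4 groups in different colours (points are samples, n = 3 per group). Slc39a1 lies highest and Slc39a2 lowest in all 4 groups, and the points of Slc39a6, Slc39a9, Slc39a3 and Slc39a11 in siNeg overlap from neighbour to neighbour.

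Slc39a2, the ZIP II importer targeted by the siRNA, is given first, since it checks the labels. Its counts were 50, 50 and 59 in the siNeg samples, 95, 198 and 182 in siNeg PE, 21, 11 and 2 in siSlc39a2, and 31, 25 and 38 in siSlc39a2 PE. All samples of both siSlc39a2 groups lay below all siNeg samples, with and without PE, and the third siSlc39a2 sample had fewer counts than the 3 taken as detected. The siRNA lowered Slc39a2 in both conditions, with log2 fold changes of -2.35 without PE (standard error, SE, 0.46, adjusted p = 0.00098 from edgeR) and -2.33 with PE (SE 0.38, adjusted p = 0.000224). Both falls passed in all 14 alternative analyses, which are other scalings, filters, tools and fits without 1 sample. The size of the fall without PE rested on single samples, being -3.12 without siSlc39a2 replicate 1 and -1.90 without siSlc39a2 replicate 3. On the log2(FPKM + 1) scale of limma, which understates changes of low genes, the falls were -1.12 and -1.55. The transcript that remained still rose with PE. In CPM it was 0.726, 0.373 and 0.0780 in siSlc39a2 and 1.16, 0.862 and 1.38 in siSlc39a2 PE, groups that did not overlap. The log2 fold change was 1.49 (SE 0.48, adjusted p = 0.0172), beside 1.47 (SE 0.36, adjusted p = 0.00541) in siNeg cells. The rise in knocked-down cells was past the threshold in 11 of the 14 alternatives and was lost without siSlc39a2 PE replicate 3 (1.32, adjusted p = 0.0553) or without siSlc39a2 replicate 2 (1.44, adjusted p = 0.0530), and by limma on unfiltered log2(FPKM + 1) (0.53, adjusted p = 0.0687). Without siSlc39a2 replicate 1 it was 2.25 and without siSlc39a2 replicate 3 it was 1.04, both past the threshold. The level reached with PE after knockdown, 0.963 ± 0.231 FPKM (SD, n = 3), remained below every siNeg sample, the lowest of which had 1.49 FPKM.

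Slc39a1, the most abundant member and a broadly expressed surface importer, was lower wherever PE or the Slc39a2 siRNA had been added. Its CPM were 412, 353 and 340 in siNeg, 336, 302 and 294 in siNeg PE, 315, 306 and 279 in siSlc39a2, and 270, 248 and 233 in siSlc39a2 PE. Every sample of the 3 other groups lay below every siNeg sample, and every sample with both treatments lay below all the rest. With the knockdown it changed by log2 values of -0.30 without PE (SE 0.09, adjusted p = 0.0124) and -0.31 with PE (SE 0.09, adjusted p = 0.0078). With PE it changed by -0.25 in siNeg cells (SE 0.09, adjusted p = 0.0320) and by -0.26 after knockdown (SE 0.09, adjusted p = 0.0195). The fall with PE in siNeg cells passed in 6 of the 14 alternatives, and by limma on quantile-normalized log2(FPKM + 1) the value was -0.04 (adjusted p = 0.610).

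Slc39a3, the third ZIP II member, went the same way as Slc39a1 at a lower level. Its CPM were 25.1, 24.3 and 23.0 in siNeg, 20.3, 19.8 and 18.4 in siNeg PE, 21.2, 21.8 and 19.6 in siSlc39a2, and 17.2, 15.9 and 14.8 in siSlc39a2 PE. As for Slc39a1, siNeg lay above all other samples and siSlc39a2 PE below all. PE lowered it, with a log2 fold change of -0.31 in siNeg cells (SE 0.08, adjusted p = 0.00766) and -0.39 after knockdown (SE 0.08, adjusted p = 0.00141), and the knockdown lowered it with PE (-0.29, SE 0.08, adjusted p = 0.00904). The fall with knockdown alone, -0.21 (adjusted p = 0.0468), was at the edge of the threshold and was past it in 2 of the 14 alternatives, with adjusted p between 0.0108 and 0.166. It was lost without any 1 of the 6 samples other than siNeg replicate 3. In FPKM, without TMM scaling, the mean of Slc39a3 was 7.97 ± 0.396 in siSlc39a2 and 7.92 ± 0.251 in siNeg (SD, n = 3), so that the direction of this small difference depended on the unit.

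**Figure D2:**
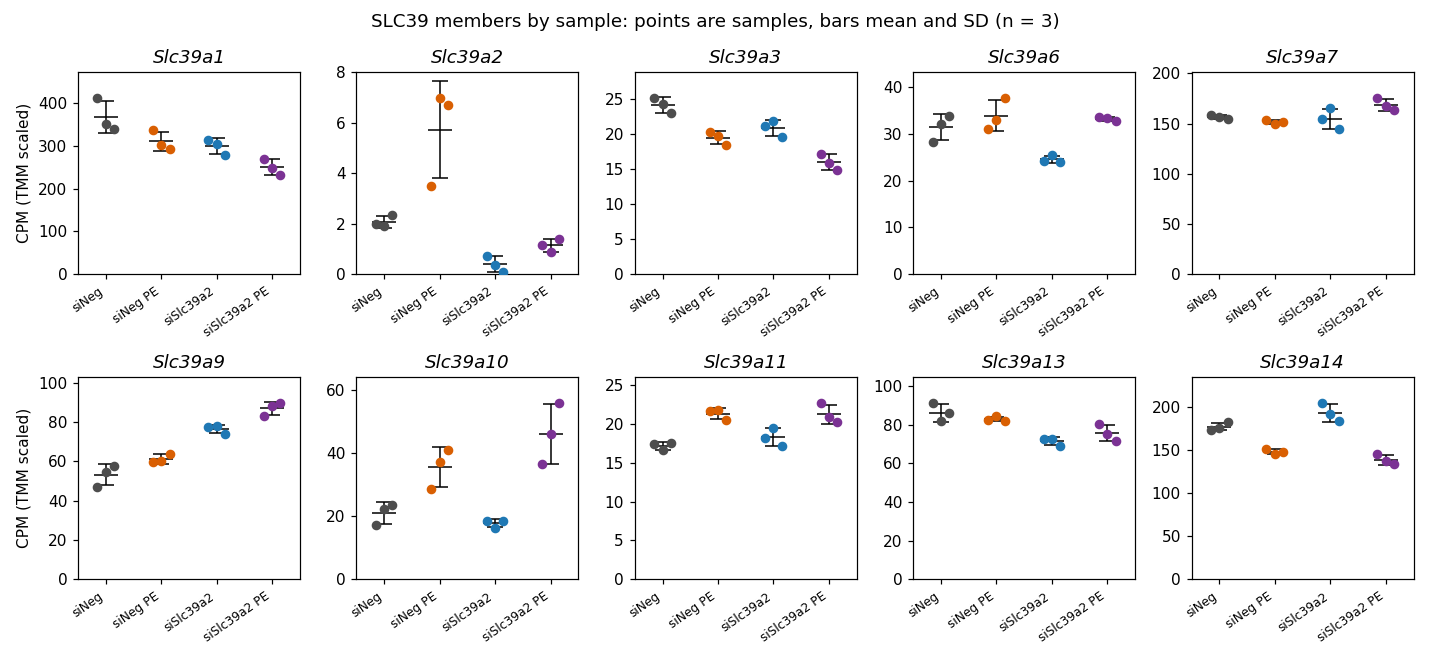
CPM of each of the 10 members in every sample of the 4 groups (points), with mean and SD (bars, n = 3), on axes that start at 0. Slc39a1 steps down from siNeg to siSlc39a2 PE and Slc39a9 steps up, while Slc39a3 is highest in siNeg and lowest in siSlc39a2 PE. Slc39a10 is high in both PE groups, and Slc39a2 is high in siNeg PE and low in both siSlc39a2 groups.

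Slc39a10, a LIV-1 importer of the cell surface, had the largest rise with PE after Slc39a2. Its CPM were 17.1, 22.4 and 23.6 in siNeg, 28.6, 37.2 and 40.9 in siNeg PE, 18.3, 16.4 and 18.5 in siSlc39a2, and 36.5, 46.0 and 55.7 in siSlc39a2 PE. The samples with PE lay above all samples without it. In siNeg cells the log2 fold change was 0.76 (SE 0.17, adjusted p = 0.00284), and after knockdown 1.38 (SE 0.17, adjusted p = 2.84e-05), a rise of more than 2-fold. Knockdown gave -0.24 without PE (adjusted p = 0.255) and 0.37 with PE (95% interval 0.02 to 0.73, adjusted p = 0.0669), neither past the threshold. The latter passed in 3 of the 14 alternatives, among them the fits without siSlc39a2 PE replicate 1 (0.51, adjusted p = 0.0135) or without siNeg PE replicate 3 (0.48, adjusted p = 0.0386). Both rises with PE passed in all 14 alternatives, at 0.53 to 0.89 in siNeg cells and at 1.05 to 1.49 after knockdown. Counts of Slc39a10 were whole in 1 of 12 samples, and how the counting divided reads between genes is not given. The part of such reads in its changes is therefore uncertain. In GRCr8 a long noncoding gene also overlaps it.

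Slc39a6, the LIV-1 protein that is known to pair with Slc39a10, was lowest after knockdown without PE. Its CPM were 28.4, 32.1 and 33.8 in siNeg, 31.2, 32.9 and 37.7 in siNeg PE, 24.2, 25.4 and 24.1 in siSlc39a2, and 33.7, 33.4 and 32.9 in siSlc39a2 PE. The 3 siSlc39a2 samples lay below all 9 others. Knockdown lowered it, with a log2 fold change of -0.35 without PE (SE 0.09, adjusted p = 0.00446), and with PE the value was -0.03 (95% interval -0.21 to 0.16, adjusted p = 0.809). PE raised it after knockdown by 0.44 (SE 0.09, adjusted p = 0.000865), and in siNeg cells the value was 0.11 (95% interval -0.07 to 0.30, adjusted p = 0.296).

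Slc39a14, a surface LIV-1 carrier of zinc, iron and manganese, fell with PE. Its CPM were 173, 176 and 182 in siNeg, 151, 145 and 147 in siNeg PE, 204, 191 and 184 in siSlc39a2, and 145, 137 and 133 in siSlc39a2 PE. The samples with PE lay below all samples without it, and the siSlc39a2 samples were highest. PE lowered it, with a log2 fold change of -0.26 in siNeg cells (SE 0.06, adjusted p = 0.0027) and -0.48 after knockdown (SE 0.06, adjusted p = 2.22e-05). Knockdown gave 0.12 without PE (95% interval 0.00 to 0.25, adjusted p = 0.0891) and -0.10 with PE (adjusted p = 0.168). The value without PE passed in 3 of the 14 alternatives. Counts were whole in 2 of 12 samples.

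Slc39a9, the ZIP I member of the Golgi apparatus, was the member that rose most with the knockdown. Its CPM were 47.2, 54.7 and 57.9 in siNeg, 59.9, 60.0 and 64.1 in siNeg PE, 77.7, 77.8 and 74.2 in siSlc39a2, and 83.4, 88.0 and 89.5 in siSlc39a2 PE. The 4 groups did not overlap, in the order siNeg, siNeg PE, siSlc39a2 and siSlc39a2 PE. The log2 fold change with knockdown was 0.52 without PE (SE 0.08, adjusted p = 9.47e-05), a rise of 43.8% (95% interval 28.4 to 60.9), and 0.50 with PE (SE 0.07, adjusted p = 0.000105). It was past the threshold in all 14 alternatives of each comparison, at 0.41 to 0.59 in the absence of PE and at 0.33 to 0.54 in its presence. The rises with PE were smaller, 0.20 in siNeg cells (adjusted p = 0.0398) and 0.18 after knockdown (adjusted p = 0.0471), and passed in 6 and in 2 of the 14 alternatives. Counts were whole in 4 of 12 samples, and in GRCr8 a long noncoding gene overlaps Slc39a9. Whether the counting used strand is not stated, so reads of the overlapping gene cannot be told apart.

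Slc39a7, which releases zinc from the endoplasmic reticulum and is the second most abundant member, varied little. Its CPM were 159, 157 and 155 in siNeg, 154, 149 and 151 in siNeg PE, 154, 165 and 145 in siSlc39a2, and 175, 167 and 164 in siSlc39a2 PE. It rose with knockdown in the presence of PE by a log2 fold change of 0.16 (SE 0.06, adjusted p = 0.0323), a call made in 6 of the 14 alternatives. It was lost without any 1 of the 3 siNeg PE samples, siSlc39a2 PE replicate 1 or siSlc39a2 PE replicate 2 (adjusted p up to 0.128). Without PE the value was -0.02 (95% interval -0.14 to 0.11, adjusted p = 0.829). PE gave -0.05 in siNeg cells (adjusted p = 0.492) and 0.12 after knockdown (adjusted p = 0.0788).

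Slc39a13, the vesicle and Golgi transporter whose loss affects connective tissue, had CPM of 91.0, 81.7 and 85.9 in siNeg, 82.5, 84.3 and 82.0 in siNeg PE, 72.5, 72.8 and 69.0 in siSlc39a2, and 80.1, 75.2 and 71.6 in siSlc39a2 PE. The siSlc39a2 samples lay below all siNeg samples. Knockdown lowered it, with a log2 fold change of -0.27 without PE (SE 0.06, adjusted p = 0.00328), and with PE the value was -0.13 (95% interval -0.27 to 0.00, adjusted p = 0.0867), past the threshold in 5 of the 14 alternatives, with adjusted p from 0.00689 to 0.268. PE gave -0.06 in siNeg cells (adjusted p = 0.478) and 0.08 after knockdown (adjusted p = 0.276). Slc39a11, the GufA member, had CPM of 17.5, 16.6 and 17.5 in siNeg, 21.7, 21.8 and 20.5 in siNeg PE, 18.2, 19.5 and 17.2 in siSlc39a2, and 22.6, 20.9 and 20.2 in siSlc39a2 PE. It was higher in all 6 samples with PE than in the 6 without. PE raised it by a log2 fold change of 0.31 in siNeg cells (SE 0.08, adjusted p = 0.0059) and 0.22 after knockdown (adjusted p = 0.0275), the latter past the threshold in 5 of the 14 alternatives. Knockdown gave 0.09 without PE (95% interval -0.08 to 0.26) and -0.00 with PE (95% interval -0.17 to 0.16). In GRCr8, Slc39a11 overlaps the protein-coding genes Sstr2 and Cog1.

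The comparison of siSlc39a2 with siNeg addresses whether other importers changed when Slc39a2 was lowered. With a single siRNA sequence, the loss of Slc39a2 and other effects of that siRNA cannot be told apart. Apart from Slc39a2 itself, 1 member rose (Slc39a9) and 4 fell (Slc39a1, Slc39a3, Slc39a6 and Slc39a13) at an adjusted p below 0.05. In all, 6 of the 10 members were called, where 49.2% of the 13967 genes were called, 22.8% higher and 26.4% lower. The median log2 fold change of the members was -0.23, beside -0.02 over all genes tested. Past 2-fold as well, Slc39a2 was the single member, where 9.78% of genes were. In the same comparison 8 of the 10 fibroblast markers fell and 1 rose. Of the other lists, 5 of 10 cardiomyocyte, 6 of 6 smooth muscle and pericyte, 4 of 7 macrophage and 1 of 6 endothelial markers tested fell. No marker of these lists rose. Of the 6 calls, those of Slc39a2, Slc39a6, Slc39a9 and Slc39a13 passed in all 14 alternatives. The call of Slc39a1 was lost without siNeg replicate 1 (-0.21, adjusted p = 0.0559) or siSlc39a2 replicate 3 (-0.25, adjusted p = 0.0555).

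In siSlc39a2 PE against siNeg PE, Slc39a7 and Slc39a9 rose and Slc39a1, Slc39a2 and Slc39a3 fell. That is 5 of the 10 members, where 57.3% of genes were called, 29.2% higher and 28.1% lower, so the share of members called was near that of all genes. The median log2 fold change of the members was -0.06, beside 0.01 over all genes tested, and Slc39a2 alone was past 2-fold, as 11.6% of genes were. Slc39a1, Slc39a2, Slc39a3 and Slc39a9 were called in the same direction in both knockdown comparisons. The share of all genes called alike in both was not counted. The knockdown comparisons share no samples but were fitted in the same model, with a shared estimate of the spread. Each of them shares samples with both PE comparisons. Of the 10 fibroblast markers, 8 fell and 1 rose here too. Among 10 cardiomyocyte markers 4 fell and 1 rose, and among 6 smooth muscle and pericyte markers 1 fell and 1 rose. Of 7 macrophage markers 2 fell, and no endothelial marker was called.

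**Figure D3:**
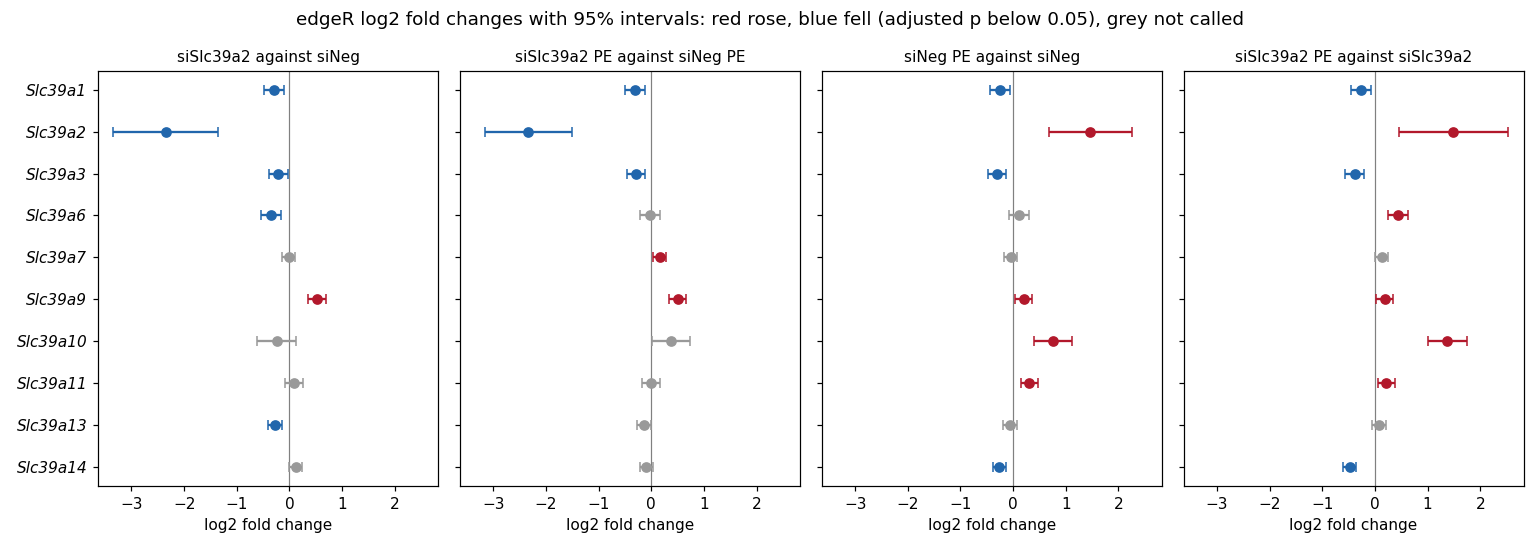
Log2 fold change of each member in the 4 comparisons, from edgeR, with 95% intervals (bars); red members rose and blue members fell at an adjusted p below 0.05, and grey members were not called. Slc39a2 lies near -2.3 in the knockdown comparisons and near 1.5 in the PE comparisons, and apart from Slc39a10 after knockdown (1.38) all other estimates lie within 1 of zero.

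PE raised Slc39a2, Slc39a9, Slc39a10 and Slc39a11 in siNeg cells and lowered Slc39a1, Slc39a3 and Slc39a14. This was 7 of the 10 members, where 49.7% of all genes were called, with 24% higher and 25.7% lower. Slc39a2 was the single member past 2-fold, where 6.6% of genes were. The median log2 fold change was 0.03, beside -0.01 over all genes tested. Of the 10 fibroblast markers, 5 fell and 2 rose. Among 10 cardiomyocyte markers 4 fell and 3 rose, and among 6 smooth muscle and pericyte markers 3 fell and 1 rose. Of 7 macrophage markers 3 fell, and of 6 endothelial markers 1 fell and 1 rose. The calls of Slc39a1 and Slc39a9 were lost in several alternatives. That of Slc39a1 was lost without siNeg replicate 1 (-0.16, adjusted p = 0.143), siNeg PE replicate 2 or siNeg PE replicate 3, and that of Slc39a9 without any sample but siNeg replicate 3 (adjusted p up to 0.157).

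After knockdown, PE raised the same 4 members and Slc39a6, and lowered the same 3, so that 8 of the 10 were called, where 60% of all genes were, 30.7% higher and 29.3% lower. The share of all genes called alike in both PE comparisons was not counted. Slc39a2 and Slc39a10 were past 2-fold, where 10.5% of genes were. The median log2 fold change of the members was 0.15, beside 0.01 over all genes tested. Of the 10 fibroblast markers, 4 fell and 3 rose. Among 10 cardiomyocyte markers 4 fell and 4 rose, and among 6 smooth muscle and pericyte markers 2 fell and 3 rose. Of 7 macrophage markers 4 fell, and of 6 endothelial markers 1 rose. Slc39a3, Slc39a6, Slc39a10 and Slc39a14 passed in all 14 alternatives. Without siSlc39a2 PE replicate 2, siSlc39a2 PE replicate 3 or siSlc39a2 replicate 1 the count was 5. The call of Slc39a9 was lost without any 1 of the 6 samples (adjusted p up to 0.123), that of Slc39a1 without replicate 2 or 3 of siSlc39a2 PE or replicate 1 or 2 of siSlc39a2 (up to 0.0780), and that of Slc39a11 without replicate 1 or 2 of siSlc39a2 PE or replicate 1 or 3 of siSlc39a2 (up to 0.159).

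The difference between the knockdown effects with and without PE was tested as an interaction. None of the 10 members passed at an adjusted p below 0.05 by edgeR, where 3.61% of genes did, and none passed by DESeq2. Of the 19 alternatives, 2 called 1 member each, Slc39a10 in one and Slc39a14 in the other. At an unadjusted p below 0.05 there were 3 members, with values of 0.62 for Slc39a10 (SE 0.24, adjusted p = 0.212), 0.33 for Slc39a6 (SE 0.12, adjusted p = 0.195) and -0.22 for Slc39a14 (SE 0.08, adjusted p = 0.191). These values are equally the difference between the PE effects after and before knockdown, which for Slc39a10 were 1.38 and 0.76. For Slc39a2 the interaction was 0.02 by edgeR, with a 95% interval from -0.90 to 0.94. The SE behind that interval was 0.43. This is below the 0.46 of the knockdown effect without PE, although that effect is part of the difference. The edgeR SE is the value divided by the root of F, which is poorly determined for a value so near zero. By edgeR it was 0.35 with the replicate block and 0.90 without the filter on low counts, and the SE by DESeq2 was 0.59. The edgeR interval for Slc39a2 is thus not reliable here and is likely too narrow. How large a difference could have been detected was not tested.

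**Figure D4:**
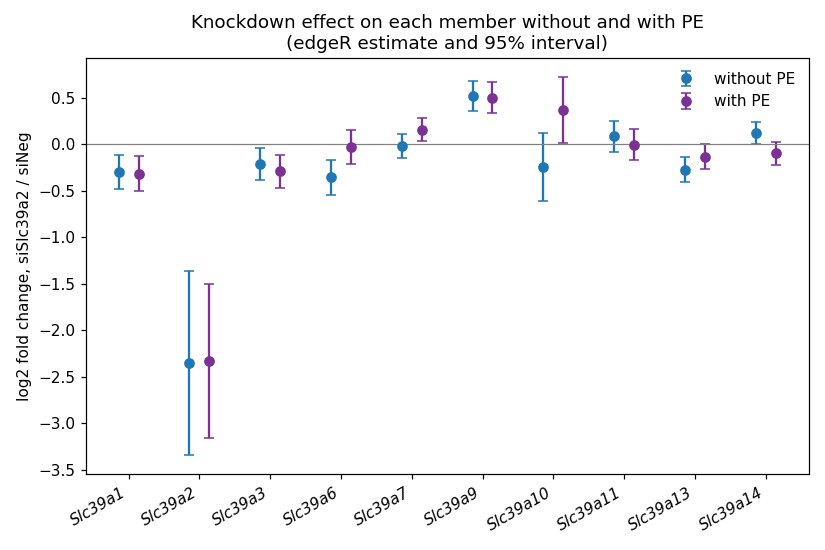
Knockdown effect (log2 fold change of siSlc39a2 over siNeg) on each member without PE and with PE, from edgeR, with 95% intervals (bars). The estimates of Slc39a9 (0.52 and 0.50) and Slc39a1 (-0.30 and -0.31) lie side by side, and those of Slc39a10 (-0.24 and 0.37) and Slc39a6 (-0.35 and -0.03) lie apart without passing the interaction test.

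Summed over the 10 members, the level was 343 ± 6.08 FPKM (SD, n = 3) in siNeg and 338 ± 15.5 in siSlc39a2, and with PE it was 337 ± 2.06 and 309 ± 10.6. The sums of siNeg and siSlc39a2 overlapped, whereas the 3 siSlc39a2 PE samples (298 to 319 FPKM) lay below all others. In TPM, which scales each sample to the same total, siSlc39a2 PE (525 to 534) overlapped with siSlc39a2 (529 to 579). Slc39a2 made up 0.474% ± 0.0642 of the sum in siNeg and 0.0972% ± 0.0790 in siSlc39a2, and with PE 1.40% ± 0.494 and 0.313% ± 0.0813. The summed level in siSlc39a2 was 98.7% of that in siNeg, and with PE it was 91.7% of that in siNeg PE (100.5% and 94.4% in TPM). Slc39a1 made up 47.5% ± 2.16 of the sum in siNeg and 37.3% ± 1.11 in siSlc39a2 PE. Over the 6 members of the cell surface (Slc39a1, Slc39a2, Slc39a3, Slc39a6, Slc39a10 and Slc39a14) the sum was 221 ± 7.19 FPKM in siNeg and 207 ± 12.7 in siSlc39a2, and with PE 209 ± 0.177 and 172 ± 6.70. RNA levels say nothing of the amount or activity of each transporter.

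**Figure D5:**
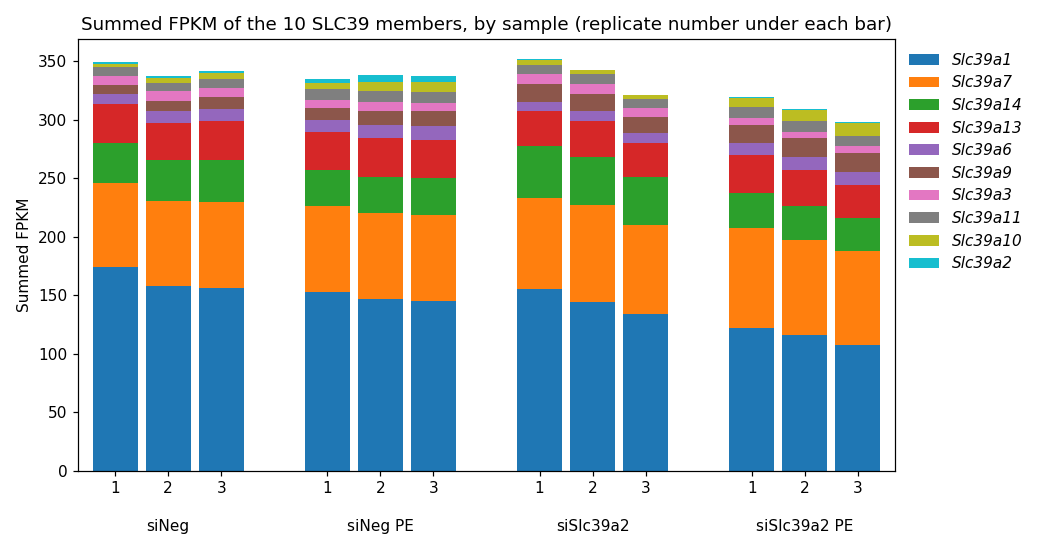
Summed FPKM of the 10 members in each of the 12 samples, stacked by member, with the replicate number under each bar. Slc39a1 and Slc39a7 make up the largest blocks, Slc39a2 is a thin band at the top, and the bars of siSlc39a2 PE (298 to 319 FPKM) are the lowest.

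Of a list of 21 other symbols of zinc genes (the remaining SLC39 members, the SLC30 family, metallothioneins and Mtf1), 17 were in the table and 13 were tested. In siSlc39a2 against siNeg, 4 of the 13 rose and 2 fell. With PE, 5 rose and 2 fell in the same contrast. PE raised 2 and lowered 4 in siNeg cells, and raised 7 and lowered 1 after knockdown. Thus 6, 7, 6 and 8 of the 13 were called, where 49.2%, 57.3%, 49.7% and 60% of all genes were. Their median log2 fold changes were 0.06, 0.25, 0.11 and 0.23 in the same order. Mtf1 rose with knockdown by a log2 fold change of 0.42 without PE (adjusted p = 0.00732) and 0.52 with PE (adjusted p = 0.00142). Past 2-fold in a comparison were Mt3, Mt1, Slc30a4 and Slc39a8. The metallothionein Mt3 fell with knockdown, with log2 fold changes of -2.33 without PE (adjusted p = 0.00583) and -2.43 with PE (adjusted p = 0.0149), on 0 to 32 counts in a sample. The more abundant metallothionein Mt2A rose with knockdown, by 0.69 without PE (adjusted p = 0.0136) and 0.90 with PE (adjusted p = 0.00283), as did the surface exporter Slc30a1, by 0.33 (adjusted p = 0.0122) and 0.25 (adjusted p = 0.0357). The metallothionein Mt1 was not called with knockdown, at 0.32 without PE (adjusted p = 0.221) and 0.05 with PE (adjusted p = 0.859). It fell with PE in siNeg cells (-0.87, adjusted p = 0.00551) and after knockdown (-1.13, adjusted p = 0.000625). Slc30a3 fell with knockdown, by -0.43 without PE (adjusted p = 0.000693) and -0.40 with PE (adjusted p = 0.00098). Slc30a9 rose with knockdown, by 0.49 (adjusted p = 0.0116) and 0.63 (adjusted p = 0.00201). The vesicular exporter Slc30a4 rose with PE by 0.67 in siNeg cells (adjusted p = 0.00685) and by 1.01 after knockdown (adjusted p = 0.00031).

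The other SLC39 genes of the table had low counts. Slc39a8, a surface carrier of zinc and manganese and the closest relative of Slc39a14, had between 19 and 87 counts. Its level was 1.29 ± 0.263 CPM (SD, n = 3) in siNeg and 0.910 ± 0.232 in siSlc39a2, and with PE it was 1.68 ± 0.439 and 2.48 ± 0.595. It rose with PE after knockdown by a log2 fold change of 1.44 (SE 0.28, adjusted p = 0.000791), and in siNeg cells the value was 0.37 (adjusted p = 0.280). The unadjusted p of its interaction was below 0.05, with a value of 1.07 (adjusted p = 0.192). That also held for Slc39a6 and Slc39a10, with the same sign, and for Slc39a14, with the opposite sign (-0.22). Slc39a4 had at most 11 counts and Slc39a5 at most 4 in any sample, and neither was tested.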

How the data were processed

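RNA-seq of 12 NRVM samples in 4 groups of 3 was analysed. The authors deposited expected counts per gene (estimated counts without normalization, not all whole) and FPKM values of the same genes. The submitters' processing notes list HISAT, Bowtie2 and the build Rnor 6.0, without their roles. The counting program and annotation are not given in the sources used here. Groups were read from the sample titles. Same-numbered cultures are not stated to have been prepared together.

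Counts were rounded, filtered by filterByExpr, normalized by TMM and fitted in edgeR 4.0.16 (R 4.3.3) as 1 model of 4 groups, with quasi-likelihood F-tests and Benjamini-Hochberg adjustment over 13967 genes. A member was called at an adjusted p below 0.05. A standard error is the log2 fold change divided by the root of F. Alternatives were RLE factors, DESeq2 1.42.0, no filter, the compared groups alone, the replicate block, limma 3.58.1 on quantile-normalized log2(FPKM + 1) or log2(FPKM + 0.1), and leaving out each sample (14 per comparison, 19 for the interaction). The fits were tested on simulated data. p-values measure the spread between these samples. The floor of 3 counts covers counting error only. The genes named were the 10 members, the zinc genes past 2-fold and the remaining SLC39 genes. Members, lists and tests were chosen with earlier results of these data known. Mtf1, Mt2A, Slc30a1, Slc30a3 and Slc30a9 were named after their values were seen.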

Additional observations from a re-analysis of the deposited data

How the results depend on the processing

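No call of a member changed direction under any alternative, and 17 of the 26 calls in the 4 comparisons passed in all 14. With a threshold of 2-fold as well, the members called numbered 1 for siSlc39a2 against siNeg, 1 for siSlc39a2 PE against siNeg PE, 1 for siNeg PE against siNeg and 2 for siSlc39a2 PE against siSlc39a2, by the rule's construction. With 1 sample left out, the counts were 4 to 6, 4 to 6, 5 to 7 and 5 to 6 in the same order, and 0 for the interaction. With the replicate block the interaction count was 1 (Slc39a10, 0.59, adjusted p = 0.0331), and with limma on unfiltered log2(FPKM + 1) it was 1 (Slc39a14). Whether the replicate numbers pair the samples was not settled, so the block was kept as an alternative. In each comparison at least 1 same-numbered pair had a correlation of deviations below 0.1 (lowest -0.0904, highest 0.320). Some samples correlated best with their own number and others did not. The block moved the count of members called from 6 to 7, from 5 to 7 and from 8 to 9, and left 7 with PE in siNeg cells. The calls it added were Slc39a14 with knockdown (adjusted p = 0.0498), Slc39a10 (0.37, adjusted p = 0.00749) and Slc39a13 (adjusted p = 0.0448) with knockdown under PE, and Slc39a7 with PE after knockdown (adjusted p = 0.0428). For the block and for the fits with 1 sample left out, the share of all genes called is not given. Their counts of members called are therefore not a result about the members. Summed TPM in siNeg PE was 102% of siNeg, against 98.2% by FPKM. TPM is FPKM divided by the total FPKM of the sample, so these values differ through the totals alone. Why the totals differed was not tested.

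Values near zero that had not been called changed sign in 39 instances. For the interaction of Slc39a2 they were -0.0030 with RLE, -0.0225 without the filter, and -0.429 and -0.428 with limma on log2(FPKM + 1), with and without the filter, and between -0.43 and 0.79 with a sample left out. For Slc39a7 with knockdown they were 0.0018 with RLE, 0.0020 with DESeq2, 0.0244 without the filter, 0.0192 with the compared groups alone, and 0.0351, 0.0355 and 0.0351 with the 3 limma settings; with PE in siNeg cells, limma gave 0.0639, 0.0647 and 0.0639. For Slc39a13 with PE in siNeg cells limma gave 0.0365, 0.0374 and 0.0365. For Slc39a11 with knockdown it gave -0.0835, -0.0934 and -0.0836. With a sample left out, ranges that crossed zero were -0.114 to 0.0451 for the interaction of Slc39a1, -0.0820 to 0.0606 for that of Slc39a9, -0.0834 to 0.0558 for Slc39a6 and -0.0528 to 0.0301 for Slc39a11 with knockdown under PE, and -0.0658 to 0.0283 for Slc39a7 with knockdown alone. Slc39a2 rests on at most 198 counts in a sample.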

Other observations

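Within groups, several members ordered the samples by replicate number alike. Slc39a1 was highest in replicate 1 and lowest in replicate 3 in all 4 groups, and Slc39a3 was lowest in replicate 3 in all 4. Slc39a10 was highest in replicate 3 in all 4 groups and lowest in replicate 1 in 3 of them. Whether same-numbered cultures share a preparation was not tested.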
